A study of Homo sapiens with 5 samples.

Results

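The transcript uc003xqp.5, taken here as the mRNA of the transcription factor SNAI2, was followed through 5 ribosome profiling libraries of HEK293T cells. It is 1 of 182398 transcripts listed in each table, chosen by its identifier after it had stood out as low in QTRT1 knockout cells. HEK293T is a human embryonic kidney line that carries the SV40 large T antigen. Each library came from cells with a knockout of 1 gene of queuosine metabolism: 1 library lacked QTRT1, 2 lacked QTGAL and 2 lacked QTMAN. All groups are knockouts in the same line, and libraries of unmodified HEK293T cells were not analysed here. The labels give no treatment or time, and do not say whether the libraries of a genotype came from separate cultures or from 1 clone. The spread between them may thus be technical.

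Ribosome profiling counts short mRNA fragments that a ribosome shielded from RNase. A footprint level therefore follows both the amount of an mRNA and its translation, and with no RNA levels analysed here these cannot be told apart. Queuosine replaces the guanosine that pairs with the third codon base in tRNAs for aspartate, asparagine, histidine and tyrosine. The enzyme that exchanges this guanine for queuine has QTRT1 as its catalytic part. QTGAL then adds galactose to queuosine in the tRNA for tyrosine, and QTMAN adds mannose in the tRNA for aspartate. SNAI2, also called Slug, is a zinc finger repressor of the Snail family that binds E-box motifs, among them those of the gene for E-cadherin. It is known for its part in neural crest development and in the epithelial-mesenchymal transition, in which epithelial cells lose contacts and become motile.

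The tables do not pair identifiers with genes, so the assignment to SNAI2 rests on the identifier and on the length of the row. The length of the row leaves 268 residues once a stop codon is taken off. That length is carried by 100 rows of the tables, so length alone does not settle the gene. RefSeq places the protein-coding gene SNAI2 (gene ID 6591) on chromosome 8 from 48917598 to 48921429 of GRCh38.p14. The next row of the tables, uc064mrw.1, has the same length and held the same count as uc003xqp.5 in every library. The 2 rows are treated as 1 measurement.

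Totals ran from 12002044 to 25291912 counts per library, and the QTRT1 library, with 13918194, was the second smallest. The transcript uc002mpr.4, of 404 codons and taken as that of QTRT1, stood at 1.28 CPM (18 counts) in the QTRT1 library. CPM is the count scaled to library size with TMM factors. In the other 4 libraries uc002mpr.4 ran from 8.26 to 13.0 CPM, so the library labelled QTRT1 knockout was the lowest for the row assigned to its target.

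In the QTRT1 library, uc003xqp.5 held 7 footprints, a level of 0.498 CPM with an exact 95% Poisson interval of 0.200 to 1.03. QTGAL knockout libraries 1 and 2 held 163 and 49 footprints, or 6.84 and 4.13 CPM. QTMAN knockout libraries 1 and 2 held 184 and 173 footprints, or 9.65 and 7.09 CPM. The QTRT1 library lay below every other library, and its interval did not reach the lowest interval of the other libraries, which began at 3.05 CPM in QTGAL library 2. These intervals cover counting error only. The transcript was chosen for being low in the QTRT1 library, so the gap between intervals is a description and no test. QTGAL library 2 was the shallowest library of the series, with 12002044 counts. Whether depth had a part in the low count of the QTRT1 library was not tested.

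**Figure D1:**
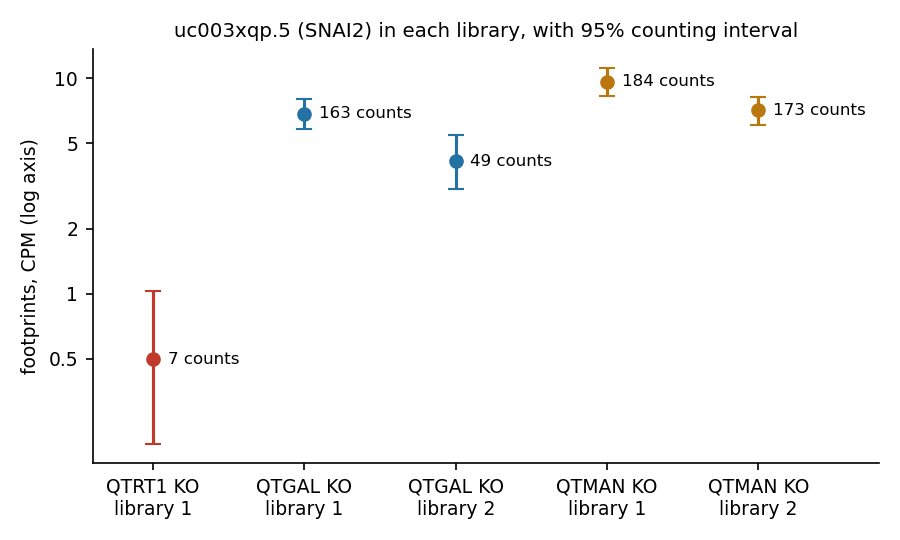
Footprints of uc003xqp.5 in each of the 5 libraries, in CPM on a log axis. Points are single libraries with their counts, and bars are exact 95% Poisson intervals. The QTRT1 library, at 0.498 CPM, lies below the other 4, which run from 4.13 to 9.65 CPM.

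Set against single libraries, the level in QTRT1 knockout was 8.28-fold below QTGAL library 2 and 13.7-fold below QTGAL library 1. It was 14.2-fold below QTMAN library 2 and 19.4-fold below QTMAN library 1. At the level of QTGAL library 2 the QTRT1 library would have held 58.0 footprints, and at that of QTMAN library 1 it would have held 135. The counting interval of the smallest of these ratios ran from 3.73-fold to 21.7-fold. In the edgeR model over all 5 libraries, the log2 fold change of QTRT1 knockout against the mean of both other knockouts was -3.77 ± 0.48 (SE). Because this contrast chose the transcript and rests on 1 QTRT1 library, the values are a description and carry no test here. Of the 60966 transcripts tested, 0.0394% (24) were called lower in that contrast, and nothing is read from that share about SNAI2.

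Per unit of coding length, SNAI2 was a moderately occupied mRNA in the glycosyltransferase knockouts. Its density was 25.4 and 15.3 CPM per 1000 codons in QTGAL libraries 1 and 2, and 35.9 and 26.3 in QTMAN libraries 1 and 2. The median density of all tested transcripts lay between 14.2 and 14.5 CPM per 1000 codons in each of the 5 libraries. In those 4 libraries the density of uc003xqp.5 exceeded that of 59.1% to 77.0% of the transcripts with a count. In the QTRT1 library it was 1.85 CPM per 1000 codons and exceeded 16.9% of them. The transcript thus stood in the upper part of the ranking in those 4 libraries and in its lower part in the QTRT1 library. CPM is scaled to library size, which by itself tends to hold the median density alike between libraries. The near-equal medians are therefore no evidence about the transcript.

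The size of the fall was set beside those of other transcripts. Of the 60966 tested transcripts, 97 had a lower fitted log2 fold change than uc003xqp.5. Of these 97, 87 held 0 counts in the QTRT1 library, where a fitted fold change depends on the prior count. The lowest of the other 4 libraries was at a median of 0.168 CPM for them and at 2.27 CPM at most. Some were far higher in their highest library. An example is uc002flb.5, with 1009 counts in total, up to 52.2 CPM and a log2 fold change of -5.18. None of the 97 reached, in all 4 QTGAL and QTMAN libraries, the 4.13 CPM that was the lowest value of uc003xqp.5 there. That limit comes from uc003xqp.5 itself, and the ranked contrast is the one that chose it. The comparison with the 97 is therefore a description and no test.

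**Figure D2:**
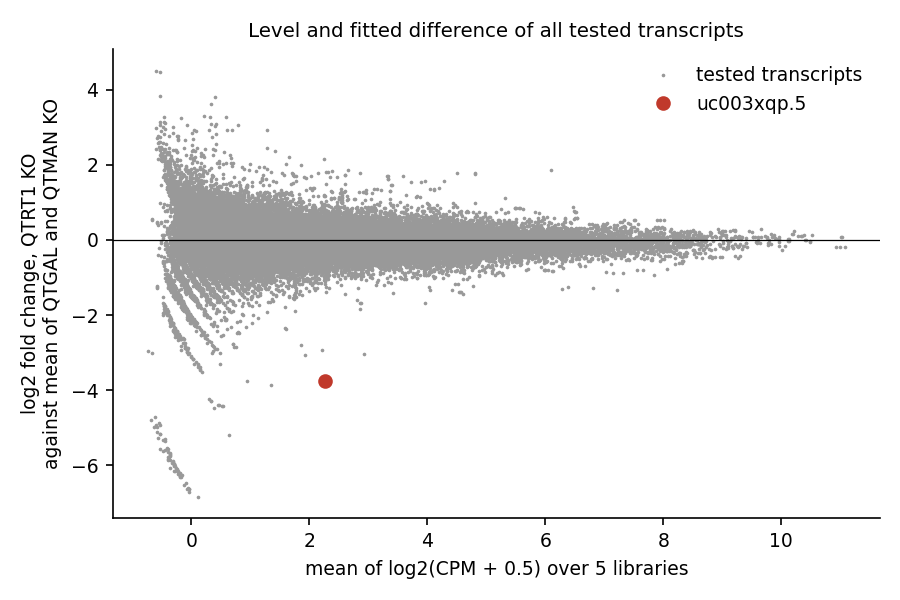
Mean level over the 5 libraries, as log2(CPM + 0.5), against the fitted log2 fold change of QTRT1 knockout relative to the mean of QTGAL and QTMAN knockout. Grey points are the tested transcripts and the red point is uc003xqp.5, at a log2 fold change of -3.77, with 97 tested transcripts at lower fold changes.

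At least 4.13 CPM in all 4 QTGAL and QTMAN libraries was held by 26357 tested transcripts. For each, the lowest of those 4 libraries was divided by the level in the QTRT1 library. The median of this ratio was 0.904, and the QTRT1 library was the lowest of the 5 for 29.3% of the 26357. In this set the ratio of 8.28 was reached by 2 rows, uc003xqp.5 and uc064mrw.1, which share their counts. The next value, 6.44, belonged to uc002mpr.4, the row taken as QTRT1 itself. The last row of the set with a ratio of 4 or more, uc060tlp.1, at 6.02, lies 3 rows after uc002mpr.4. Its counts were 0.511 to 0.639 of those of uc002mpr.4 in every library. Whether these rows share footprints was not tested. The set and its lower limit were defined from the values of uc003xqp.5, so this order is a description and depends on that limit. The limit left out uc060tlu.1, 8 rows after uc002mpr.4, with 3 counts in the QTRT1 library and 27 in QTGAL library 2. Its fitted log2 fold change of -3.86 was below the -3.77 of uc003xqp.5. The counting interval of the ratio of 8.28, from 3.73 to 21.7, also covers 6.44 and 6.02.

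**Figure D3:**
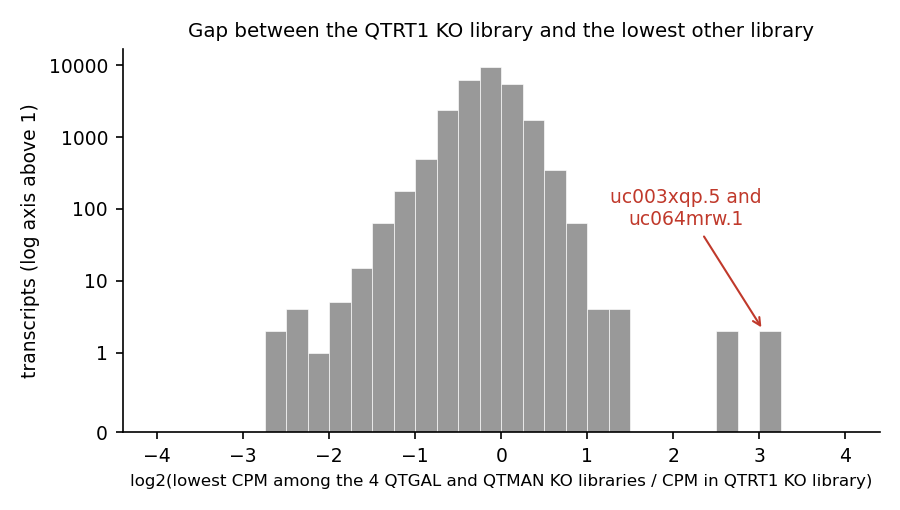
Number of transcripts by the log2 ratio of the lowest QTGAL or QTMAN library to the QTRT1 library, for the 26357 tested transcripts with at least 4.13 CPM in all 4 of those libraries; the vertical axis is logarithmic above 1. The rightmost bar holds uc003xqp.5 and uc064mrw.1, at a ratio of 8.28.

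Whether SNAI2 footprints differed between cells without the galactose transferase and those without the mannose transferase was asked by setting the QTGAL libraries against the QTMAN libraries. This contrast was not the one that chose the transcript. The mean level without QTGAL was 5.48 ± 1.92 CPM (SD, n = 2), and without QTMAN it was 8.37 ± 1.81 CPM (SD, n = 2). Both QTGAL libraries, at 6.84 and 4.13 CPM, lay below both QTMAN libraries, at 9.65 and 7.09 CPM. The groups did not overlap, and the same held for 18.3% of all tested transcripts. The log2 fold change of QTGAL against QTMAN knockout was -0.55 ± 0.24 (SE), with a 95% interval of -1.08 to -0.03. It was not called by the edgeR quasi-likelihood test (adjusted p = 0.758, unadjusted p = 0.0396), so it did not pass once adjusted over all 60966 transcripts.

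No transcript was called in that contrast by edgeR at an adjusted p threshold of 0.05, which is 0% of 60966. There were 3953 transcripts at an unadjusted p under 0.05, where 3048 would be expected with no difference, and DESeq2 called 12. DESeq2 gave uc003xqp.5 no adjusted p in this contrast. Leaving out QTGAL library 1 moved the log2 fold change to -1.01, and leaving out QTGAL library 2 moved it to -0.29. It was -0.32 without QTMAN library 1 and -0.77 without QTMAN library 2.

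Libraries of the same genotype also differed for this transcript. QTGAL library 1 lay above QTGAL library 2 by 0.73 on the log2 scale, with a counting interval of 0.26 to 1.22. QTMAN library 1 lay above QTMAN library 2 by 0.44, with a counting interval of 0.14 to 0.75. Both intervals stay above 0, so replicate libraries were further apart than counting error. On log2(CPM + 0.5), the QTGAL pair differed by more than for 93.9% of tested transcripts, and the QTMAN pair by more than for 84.1%.

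Ordered by level, the libraries ran from QTRT1, through QTGAL 2, QTGAL 1 and QTMAN 2, to QTMAN 1. The closest neighbours in this order were QTGAL library 1 and QTMAN library 2, which differed by -0.05 on the log2 scale with a counting interval of -0.37 to 0.27. The step from QTRT1 to QTGAL library 2, at 3.05 on the log2 scale between 0.498 and 4.13 CPM, was larger than the whole span of 1.22 from QTGAL library 2 to QTMAN library 1. The transcript was chosen for being low in the QTRT1 library, so setting this step beside that span is a description and no test. No replicate of the QTRT1 library exists here, so its own spread was not measured.

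Apart from uc064mrw.1, none of the rows around uc003xqp.5 held footprints. Of the 20 rows within 10 positions, 11 carry a coding length and 1, uc064mrw.1, has a count in any library. The nearest other row with a count lies 20 rows before and the next 33 rows after. The 20 nearest tested rows, with adjacent rows of identical counts taken once, lie from 40 rows before to 83 rows after. Rows of identical counts that were not adjacent were kept, so the 20 are not all separate measurements. Their log2 fold changes of QTRT1 knockout against the mean of both others had a median of 0.07, and 8 of 20 were below 0. The lowest of them was -1.85, for uc011ldt.3, at 0.285 CPM in the QTRT1 library and 0.778 to 1.47 CPM in the others. The row after uc011ldt.3 was the next lowest, at -1.46. None of the 20 reached the -3.77 of uc003xqp.5.

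**Figure D4:**
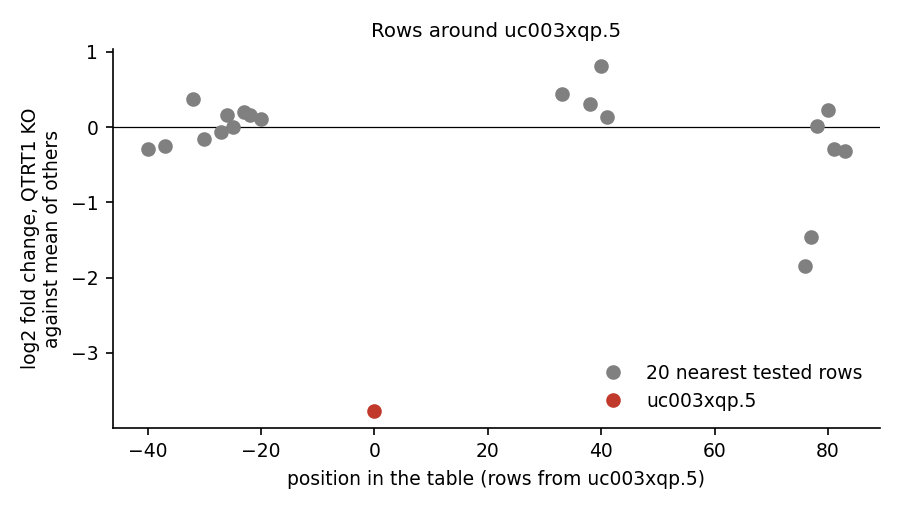
Fitted log2 fold change of QTRT1 knockout against the mean of QTGAL and QTMAN knockout for the 20 nearest tested rows (grey) and uc003xqp.5 (red), by position in the tables counted in rows from uc003xqp.5. The grey points have a median of 0.07 and a lowest value of -1.85, and the red point is at -3.77.

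The patterns most like that of SNAI2 over the 5 libraries belonged to the row taken as QTRT1 and to rows beside it. Likeness was the Euclidean distance between deviations of log2(CPM + 0.5) from each transcript's own mean, whose median over all tested transcripts was 2.69. The smallest distance, 0.709, was that of uc060tlp.1, of 226 codons, and the second, 0.725, that of uc002mpr.4, 3 rows before it. With a pseudocount of 0.1, uc060tlp.1 ranked 2. The transcripts ranked 3 to 5 lie 4 to 8 rows after uc002mpr.4. Whether these rows are isoforms of 1 gene that share footprints was not tested, and the naming rule took 1 per 20 neighbouring rows, uc060tlp.1. It stood at 0.783 CPM (11 counts) in the QTRT1 library. In QTGAL libraries 1 and 2 it stood at 6.63 and 4.72 CPM. In QTMAN libraries 1 and 2 it stood at 6.40 and 6.06 CPM. It was low in the QTRT1 library as SNAI2 was, and like SNAI2 it was lower in QTGAL library 2 than in the other 3. Because uc060tlp.1 was taken for its likeness over these same libraries, this is no separate finding.

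The other transcript taken by the rule, uc003yor.3, of 499 codons, ranked 6 of all rows, at a distance of 1.12, and ranked 10 with a pseudocount of 1. It held 2 counts in the QTRT1 library, 27 and 19 in QTGAL libraries 1 and 2, and 74 and 55 in QTMAN libraries 1 and 2. Its levels ran from 0.142 CPM in the QTRT1 library to 3.88 CPM in QTMAN library 1, so its QTRT1 value rests on fewer footprints than that of SNAI2. Over 5 libraries such likeness is a weak measure: Pearson's r with uc003xqp.5 was above 0.95 for 1112 other tested transcripts, and all of them share these 5 libraries and their depths. By Pearson's r, uc060tlp.1 (r = 0.983) ranked 242 and uc003yor.3 (r = 0.919) ranked 1924. The tables give no gene for either identifier.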

How the data were processed

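Per the labels' protocols, RNase I footprints of pelleted ribosomes were size-selected on a gel, ligated to a linker, depleted of ribosomal RNA and amplified. No molecular identifiers are mentioned. The deposited files hold a whole-number footprint count per transcript, not normalized, and a length (unit other), read as codons. The submitters' processing notes name bcl2fastq 2.19, CASAVA, STAR 2.7.0a and hg38; annotation, counting program and strand setting were not given in the sources used here.

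Replicates were numbered in accession order. edgeR 4.0.16 in R 4.3.3 was run on 60966 transcripts kept by filterByExpr, with TMM factors and the quasi-likelihood test (1 mean per genotype, all 5 libraries, 2 residual degrees of freedom), and an adjusted p (Benjamini-Hochberg) under 0.05 was called. Intervals of log2 fold changes use edgeR's SE and moderated degrees of freedom. Alternatives were DESeq2 1.42.0, other scalings and filters, 1 row per run of identical counts, a replicate block and leaving out each library.

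Besides uc003xqp.5, the naming rule took rows within 10 that have a count, the 2 transcripts of most similar pattern, and the row taken as QTRT1. The rows uc011ldt.3 and uc002flb.5 were named after their values were seen. The transcript, lists and rules were chosen with earlier results of these data known. Planned lists of Snail family and epithelial-mesenchymal genes, and the amino acid content of SNAI2, were not analysed here, since no table pairs the identifiers with genes or holds the proteins.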

Additional observations from a re-analysis of the deposited data

How the results depend on the processing

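The log2 fold change of uc003xqp.5 in QTGAL against QTMAN knockout stayed negative and uncalled under 12 alternatives, from -1.01 to -0.29, with adjusted p from 0.107 to 0.99985 where one was given. That of QTRT1 knockout against both stayed between -4.01 and -3.54 under 11 alternatives, within 1 replicate SD (0.43 on the log2 scale) of the value reported. The number of transcripts called depended more on the setting. The edgeR counts cover both directions. The number tested also differed: 60966 in the main setting, 79348 with no filter and 27402 at 5 CPM or more in 2 libraries. DESeq2 gave an adjusted p to 4231 transcripts for QTGAL against QTMAN and to 27870 for QTRT1 against both. For QTGAL against QTMAN, edgeR called 0, against 282 with no filter other than 1 count, 12 by DESeq2, and 0 to 506 when 1 library was left out (506 without QTMAN library 2). For QTRT1 against both it called 98, against 211 with column totals, 1161 with no filter, 9 at 5 CPM or more in 2 libraries, 165 by DESeq2, and 95 to 1438 without 1 library (1438 without QTMAN library 2). With the replicate number as a block these counts were 49 and 464. Replicate deviations of the QTGAL and QTMAN pairs correlated at r = 0.187 across transcripts; with 2 pairs and no label that ties the numbers, they were not taken as paired. With that replicate block, uc003xqp.5 stood at -0.61 for QTGAL against QTMAN (edgeR adjusted p = 0.323) and at -4.01 for QTRT1 against both. The cause of these shifts was not tested. With 7 footprints in 1 QTRT1 library, depth limits how precisely the fall can be sized.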
